A study of Mus musculus with 6 samples.

Results

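The genes described here encode the mTOR complexes, their upstream regulators and nutrient sensors, and their first targets. They were a named list of 45 genes, matched by symbol through the platform annotation to probe sets with exactly 1 gene symbol. The brightest probe set over all 6 arrays stood for each gene. Of these members 44 were measured, among 22180 genes in all, and the exception was Rps6kb1, the gene of S6 kinase 1, which was not analysed here. The grafts were BALB/c hearts placed in C57BL/6 mice, from which graft-infiltrating macrophages were sorted by flow cytometry on day 6. In 3 samples, called mTORi-HDL 1 to 3, the recipients had been given mTORi-HDL, an mTOR inhibitor carried in a high-density lipoprotein particle, at 5 mg/kg on days 0, 2 and 5. In the other 3 samples, called untreated 1 to 3, the recipients had no treatment and rejected the graft. All 6 samples thus came from fully mismatched grafts, and no sample came from recipients of the particle without the inhibitor. The labels give neither the animals' age nor the markers of the sort, and they do not say whether a sample was 1 recipient or a pool, so p-values measure the spread between these samples only.

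The mTOR kinase works in 2 complexes, which the subunits Raptor and Rictor define. Complex 1 is switched on at the lysosome: amino acids act through the Rag GTPases and their anchor, Ragulator, while growth factors act through PI3K, Akt and the TSC complex, which holds the small GTPase Rheb in check. Active complex 1 phosphorylates S6 kinases and 4E-binding proteins and so promotes translation, and it restrains autophagy. In macrophages the pathway links nutrient supply to activation state. The arrays measured transcripts of these proteins, not their phosphorylation, so the values below are not a readout of kinase activity.

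One array, mTORi-HDL 1, was unlike the remaining 5. The SD of its log2 values over all probe sets was 1.68, while the remaining arrays had SDs from 2.04 to 2.09. It correlated with them at 0.708 to 0.741, and they correlated with each other at 0.892 to 0.912. Differences between the groups are therefore given with all arrays and again without it. T cell, cell division and fibroblast and mural cell transcripts moved with the groups too. The mean level of macrophage markers did so except on mTORi-HDL 1. Of these 14 markers, 4 were higher on all 3 treated arrays than on any untreated array. Of 14 measured T cell markers all 14 were lower on average in treated samples, with mean log2 levels of 6.59 to 8.07 on treated and 8.99 to 9.27 on untreated arrays. The 23 measured cell division genes had mean levels of 4.88 to 6.16 on treated and 7.16 to 7.65 on untreated arrays. For 14 macrophage markers the mean levels were 7.31 on mTORi-HDL 1, 8.47 and 9.05 on mTORi-HDL 2 and 3, and 7.42 to 7.73 on untreated arrays. Fibroblast and mural cell markers (9 genes) had mean levels of 5.19 to 5.42 on treated and 4.05 to 4.36 on untreated arrays. The part that these shifts played in the results below was not tested. In such bulk samples, fewer cells of a type and less RNA per cell cannot be told apart.

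The comparison asked whether transcripts of the drug's own pathway differed between the sorted samples of treated and untreated recipients. On untreated arrays the T cell markers had higher mean levels (8.99 to 9.27) than the macrophage markers (7.42 to 7.73). The differences below are those of whole samples, and the part of macrophage RNA in them was not tested. No member passed the test after adjustment, and arms were not tested against each other. Sesn1, Sesn3, Tbc1d7, Pdpk1 and Rps6kb2, which encode 2 sestrins, a TSC subunit, the kinase PDK1 and S6 kinase 2, were lower on average by 0.86 log2 units or more, with mTORi-HDL 1 or without it. The genes of mTOR itself, Raptor, Rictor, TSC1, TSC2 and Rheb had differences between -0.23 and 0.35 in both fits. After cyclic loess, another scaling, Rictor and Rheb each had 0.56. Most of the PI3K subunits and the translation factor genes Eif4b and Eif4e were low on mTORi-HDL 1 and nearer the untreated level on mTORi-HDL 2 and 3. Pik3ca and Pik3cd were still at -0.47 and -0.53 from the untreated mean on mTORi-HDL 3.

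No member passed limma's test across all genes at an adjusted p of 0.05, and neither did any other gene (0%, or 0 of 22180). Among members the smallest adjusted p was 0.890, and 0.413 when mTORi-HDL 1 was left out. At an unadjusted p under 0.05, 5 of 44 members (11.4%) were lower in treated samples, where 3.07% of all genes were, and 0 were higher, where 1.57% of all genes were. Leaving out mTORi-HDL 1 gave 6 lower members (13.6%, against 3.51% of all genes) and 0 higher (against 3.47%). All 5 genes of the first count were in the second, which added Nprl2. The count was 3 without untreated 2 and 2 without untreated 3. Without mTORi-HDL 3 it was 6, and 1 member, Rraga, was then higher. The number of all 22180 genes at such a p, in either direction, moved too. It was 1029 with all arrays, 655 without untreated 2, 615 without untreated 3 and 1406 without mTORi-HDL 3. The 3 treated arrays all lay below the 3 untreated arrays for 6 members (13.6%, against 5.53% of all genes) and above them for 1 (2.27%, against 5.37%). With 3 arrays a side, an exact two-sided permutation test cannot go below p = 0.1, which is what such a separation gives for 1 gene. Without mTORi-HDL 1 the groups stood apart downward for 10 members (22.7%, against 12.5% of all genes) and upward for 2 (4.55%, against 9.75%). The downward count was 12 without mTORi-HDL 3 and 10 without untreated 1. The upward count was 3 without mTORi-HDL 3 or untreated 3, and 2 without untreated 1 or untreated 2. For these other fits the share of all genes was not counted. Fewer arrays make such a separation easier: downward it rose from 5.53% to 12.5% of all genes without mTORi-HDL 1. These counts are therefore not read as particular to the members.

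Across the 44 members the median log2 difference was -0.33, with 30 lower and 14 higher on average, where the median over all genes was 0.08 with 9279 lower and 12901 higher. Centring each array on its median moved the median of all genes to -0.03 and that of the members to -0.43, with 36 lower and 8 higher. Taken array by array against the untreated mean, the members' median was -0.59 for mTORi-HDL 1, -0.24 for mTORi-HDL 2 and -0.06 for mTORi-HDL 3. Untreated arrays lay between -0.05 and 0.07, so the value of mTORi-HDL 3 was next to theirs. Without mTORi-HDL 1 the members' median was -0.10, with 25 lower and 19 higher, beside -0.03 over all genes. For 23 of 44 members (52.3%) mTORi-HDL 1 was the lowest of the 6 arrays, where this held for 23.4% of all genes. Members were brighter than most genes, and only 3 had a mean under the median of all genes. Among genes at or above that median, the median difference was -0.12 for all genes and -0.39 for members. The other values for all genes in this paragraph come from a dimmer set and were not matched for brightness.

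**Figure D1:**
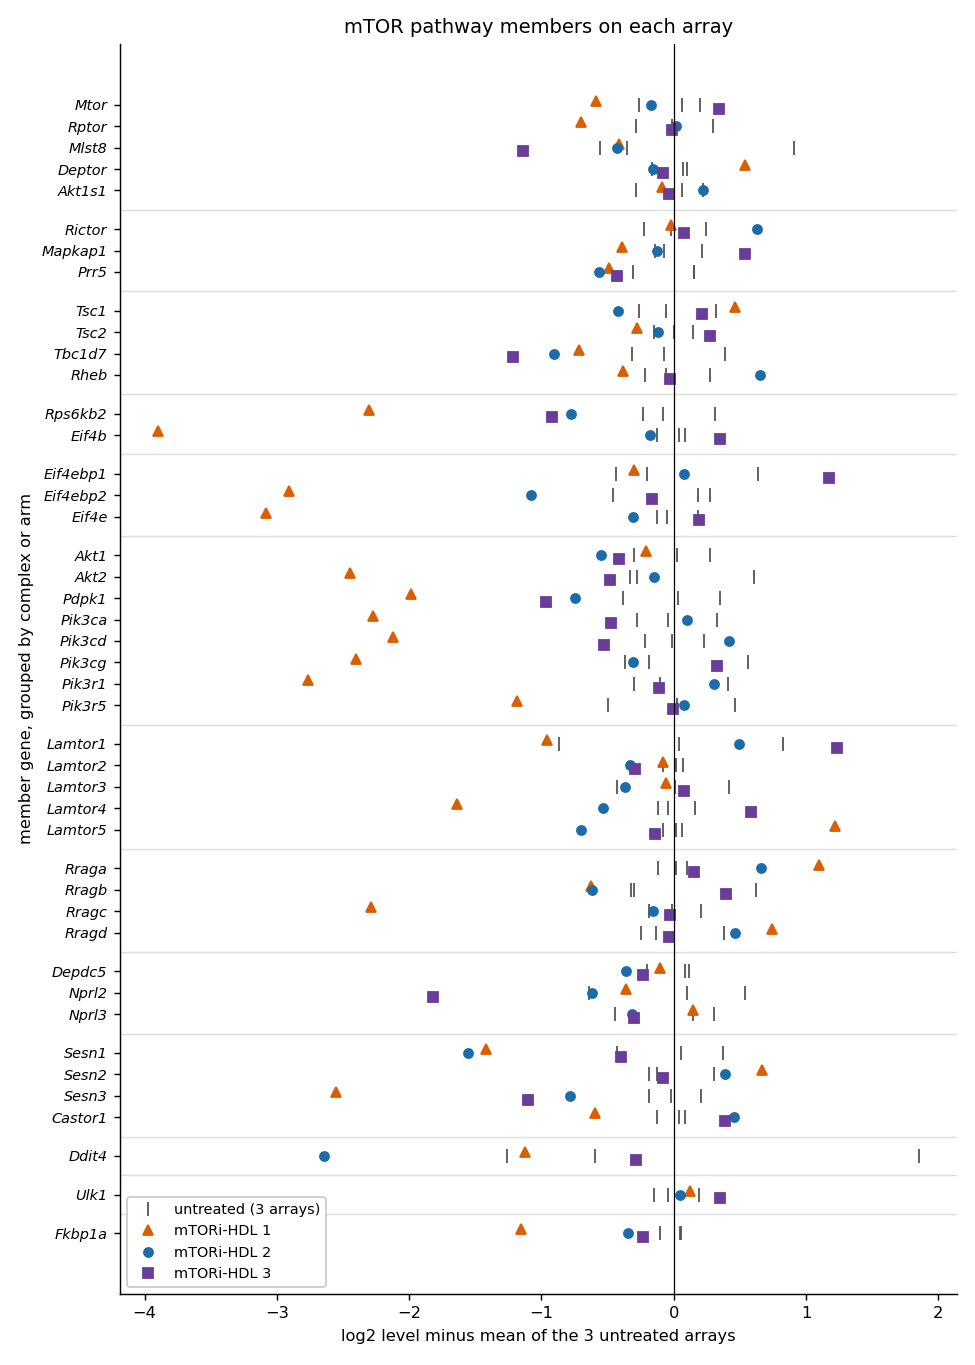
Each row is 1 of the 44 measured members, grouped by complex or arm, and the x axis is the log2 level minus the mean of the 3 untreated arrays (grey bars). Orange triangles are mTORi-HDL 1, blue circles mTORi-HDL 2 and purple squares mTORi-HDL 3. Most triangles of the PI3K, S6K and 4E-BP rows lie far below the untreated mean, Eif4b at -3.89, while in the Tbc1d7 and Sesn3 rows all 3 treated arrays lie to the left.

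Among the genes of complex 1, Mtor encodes the kinase. Its log2 level was 4.93, 5.35 and 5.86 on mTORi-HDL 1, 2 and 3 and 5.58, 5.72 and 5.26 on untreated 1, 2 and 3. The groups overlapped, with a difference of -0.14 (95% interval -0.89 to 0.62) over all arrays and of 0.09 (-0.54 to 0.72) without mTORi-HDL 1. Rptor, the gene of the scaffold Raptor, read 3.96, 4.68 and 4.65 in treated and 4.38, 4.96 and 4.65 in untreated samples. Its difference of -0.23 (-0.97 to 0.51) became 0.00 (-0.59 to 0.59) without mTORi-HDL 1. Mlst8, the subunit shared by both complexes, read 5.20, 5.18 and 4.47 in treated and 5.26, 5.05 and 6.52 in untreated samples, and its difference of -0.66 ± 0.45 (SE), or -0.79 ± 0.48 without mTORi-HDL 1, came with 1 high array, untreated 3. The 2 inhibitory subunits, DEPTOR and PRAS40, are encoded by Deptor and Akt1s1. Deptor had a difference of 0.10 ± 0.29 (SE), and -0.12 ± 0.21 without mTORi-HDL 1. For Akt1s1 these were 0.03 ± 0.27 and 0.09 ± 0.25. A second, dimmer probe set of Deptor had a difference of 0.37. As a group the 5 genes had a median difference of -0.14, and of 0.00 without mTORi-HDL 1. The interval of Mlst8, the widest of the 5, reached from -1.71 to 0.38.

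Rictor and Mapkap1 encode the 2 subunits that, with mTOR and mLST8, form complex 2, and Prr5 encodes its accessory subunit Protor-1. Rictor read 5.85, 6.50 and 5.95 in treated and 5.65, 5.85 and 6.12 in untreated samples. Its difference was 0.23 (95% interval -0.47 to 0.92), 0.49 after quantile normalization, 0.56 after cyclic loess and 0.35 without mTORi-HDL 1. Mapkap1 had a difference of 0.01 ± 0.32 (SE), and of 0.21 ± 0.28 without that array. Whether Prr5 differed from these partners in its response was not tested. It read 4.09, 4.01 and 4.15 on the treated arrays and 4.73, 4.73 and 4.27 on the untreated ones. All 3 treated arrays were below the lowest untreated array, by 0.12 at the closest, and the difference of -0.50 ± 0.26 (SE, limma, unadjusted p = 0.0981, adjusted p = 0.890) was the same without mTORi-HDL 1.

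The TSC complex consists of TSC1, TSC2 and the small subunit TBC1D7, and turns Rheb off. Tbc1d7 was the member of this group that separated the samples. It read 4.01, 3.82 and 3.51 on mTORi-HDL 1, 2 and 3 and 4.65, 4.41 and 5.11 on the untreated arrays. Every treated array was below every untreated one, and here mTORi-HDL 1 was the nearest of the treated arrays to the untreated level. The difference was -0.94 ± 0.30 (SE, limma, unadjusted p = 0.0148, adjusted p = 0.890), and -1.06 ± 0.28 without mTORi-HDL 1 (unadjusted p = 0.00715, adjusted p = 0.435). It was lower under each of 17 alternative settings, by 0.75 to 1.10, and at an unadjusted p under 0.05 in 15 of them. Several of these, such as the filters and probe set choices, could not change its difference, and all reuse the same arrays.

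Tsc1 read 4.98, 4.10 and 4.73 in treated and 4.84, 4.46 and 4.26 in untreated samples, and the difference of 0.08 (95% interval -0.69 to 0.85) was 0.00 after cyclic loess and -0.11 without mTORi-HDL 1. Tsc2 read 5.03, 5.19 and 5.58 against 5.45, 5.31 and 5.16, with a difference of -0.04 (-0.67 to 0.59) that was 0.08 without mTORi-HDL 1. Rheb, the GTPase that activates complex 1, read 7.24, 8.28 and 7.60 in treated and 7.90, 7.41 and 7.57 in untreated samples. Its difference was 0.08 (-0.72 to 0.87), 0.42 after quantile normalization, 0.56 after cyclic loess and 0.31 without mTORi-HDL 1. These 3 genes had overlapping groups, unlike Tbc1d7.

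The promoter of Tbc1d7 is shown because it was the gene of the TSC group whose samples stood apart and because its upstream sequence holds an E-box. This is the 250 bases before the start in RefSeq, build GRCm38.p6, with the E-box CACGTG in capitals:
Tbc1d7, chr13:43171502-43171751, - strand: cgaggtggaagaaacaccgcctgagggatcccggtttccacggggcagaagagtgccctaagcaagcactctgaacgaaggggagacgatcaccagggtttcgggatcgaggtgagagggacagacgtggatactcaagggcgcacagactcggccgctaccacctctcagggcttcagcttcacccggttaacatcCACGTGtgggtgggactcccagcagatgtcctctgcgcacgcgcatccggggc
CACGTG is the core that MYC and the lysosomal regulators TFEB and MITF can bind, and it reads the same on both strands. Of 32851 such windows over all genes, 6.02% held it. RefSeq promoters were found for 41 of the 45 members, 10 of them with more than 1 start, and 7 of their 54 windows held CACGTG, each from another gene. They are shown for the reach of the motif across the Rheb, Rag, Ragulator and 4E-BP genes. The bases around each match follow in 5′ to 3′ order, with CACGTG in capitals, and Rragb, Lamtor4 and Eif4e each have a pair of matches:
Rheb, chr5:24842440-24842469, - strand, 96 bases before the start: gccgcgcgcggtCACGTGggtgtgttgttg
Rragb, chrX:153139819-153139848, + strand, 127 bases before the start: gagagcccgggcCACGTGatggcgggtggc
Rragb, chrX:153139910-153139939, + strand, 36 bases before the start: aaagggtagcggCACGTGacaggccctggg
Rragc, chr4:123917309-123917338, + strand, 112 bases before the start: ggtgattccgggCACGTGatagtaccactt
Lamtor1, chr7:101905757-101905786, + strand, 68 bases before the start: ctgccttcctatCACGTGccgcgggtccgc
Lamtor4, chr5:138255350-138255379, + strand, 120 bases before the start: gcagaaagttaaCACGTGaacagcttttca
Lamtor4, chr5:138255366-138255395, + strand, 104 bases before the start: tgaacagcttttCACGTGtaaaccaaacca
Eif4e, chr3:138527028-138527057, + strand, 228 bases before the start: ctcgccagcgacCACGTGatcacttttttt
Eif4e, chr3:138527192-138527221, + strand, 64 bases before the start: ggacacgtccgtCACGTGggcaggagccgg
The differences of these 7 genes had both signs. With all arrays and then without mTORi-HDL 1 they were -0.94 and -1.06 for Tbc1d7, 0.08 and 0.31 for Rheb, -0.28 and -0.11 for Rragb, and -0.82 and -0.09 for Rragc. For Lamtor1 they were 0.26 and 0.87, for Lamtor4 -0.53 and 0.02, and for Eif4e -1.07 and -0.06. The negative values of Rragc, Lamtor4 and Eif4e over all arrays thus rested on mTORi-HDL 1. The windows of members were searched on both strands for 2 more motifs, and no match of these was in a gene with CACGTG. The FOXO core GTAAACA was in 3.17% of all windows and in those of Akt1, Mapkap1 and Pik3cg. The ATF4 element TTGCATCA was in 0.791% of all windows and in 1 of Pik3cd. A match describes these letters only.

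The S6 kinase arm had 2 measured members. Rps6kb2, the gene of S6 kinase 2, read 3.95, 5.47 and 5.33 on mTORi-HDL 1, 2 and 3 and 6.56, 6.17 and 6.02 on untreated 1, 2 and 3. All treated arrays were lower than all untreated ones, and mTORi-HDL 1 was far below the rest. The difference was -1.34 ± 0.44 (SE, limma, unadjusted p = 0.0177, adjusted p = 0.890), and without mTORi-HDL 1 it was -0.86 ± 0.25 (unadjusted p = 0.0112, adjusted p = 0.486). Eif4b, a translation factor that S6 kinases phosphorylate, showed another pattern. On mTORi-HDL 1 it read 5.24, against 8.96 on mTORi-HDL 2, 9.49 on mTORi-HDL 3 and 9.18, 9.01 and 9.22 in untreated samples. Its difference of -1.24 ± 1.01 (SE) was 0.09 ± 0.25 without that 1 array.

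Of the 4E-BP arm, Eif4ebp1 and Eif4ebp2 encode repressors of cap-dependent translation and Eif4e encodes the cap-binding protein they hold. Eif4ebp1 read 5.41, 5.79 and 6.88 in treated and 5.27, 6.35 and 5.51 in untreated samples, with overlapping groups and a difference of 0.31 (95% interval -0.77 to 1.40), which was 0.62 (-0.43 to 1.67) without mTORi-HDL 1. Eif4ebp2 read 5.30, 7.13 and 8.04 in treated and 7.75, 8.39 and 8.48 in untreated samples. Here mTORi-HDL 1 and 2 were below the untreated arrays and mTORi-HDL 3 was among them, and the difference of -1.39 ± 0.66 (SE) was -0.62 ± 0.36 without mTORi-HDL 1. Eif4e read 4.51 on mTORi-HDL 1 against 7.28 to 7.78 on the other 5 arrays. For the arm the median difference was -1.07, and -0.06 once mTORi-HDL 1 was left out.

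All 8 genes of the PI3K-Akt arm were lower on average in treated samples, with a median of -0.82, and 7 of them were lowest on mTORi-HDL 1. Without that array the median was -0.12 and 5 of 8 were lower. Pdpk1, the gene of PDK1, which phosphorylates Akt and S6 kinases, was lower on every treated array. It read 5.17, 6.41 and 6.19 on mTORi-HDL 1, 2 and 3 and 6.77, 7.51 and 7.19 in untreated samples. Its difference was -1.23 ± 0.40 (SE, limma, unadjusted p = 0.0158, adjusted p = 0.890), and -0.86 ± 0.28 without mTORi-HDL 1 (unadjusted p = 0.0184, adjusted p = 0.550).

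The catalytic subunit genes Pik3ca, Pik3cd and Pik3cg, of PI3K alpha, delta and gamma, had differences of -0.88 ± 0.59, -0.75 ± 0.60 and -0.79 ± 0.68 (SE). Without mTORi-HDL 1 these were -0.18 ± 0.29, -0.06 ± 0.33 and 0.01 ± 0.36. On mTORi-HDL 3 Pik3ca and Pik3cd read 6.51 and 5.88, below all untreated arrays. When mTORi-HDL 2 was left out, both had an unadjusted p under 0.05 in limma, and the smallest adjusted p of any member was 0.690. In that fit 1495 of all 22180 genes had such an unadjusted p, in either direction. Pik3r1, the regulatory subunit p85 alpha, read 5.05 on mTORi-HDL 1 and 7.51 to 8.22 on the other 5 arrays, with differences of -0.86 with that array and 0.10 without it. Pik3r5, a regulatory subunit of PI3K gamma, read 5.36 on mTORi-HDL 1 and 6.05 to 7.01 elsewhere, with differences of -0.37 and 0.04. Akt1 and Akt2 encode the kinase Akt itself. Akt2 read 4.66 on mTORi-HDL 1 and 6.63 to 7.72 on the other arrays, with differences of -1.03 and -0.31. Akt1 read 5.92, 5.58 and 5.72 in treated and 6.16, 5.83 and 6.41 in untreated samples. For Akt1 mTORi-HDL 1 was the highest treated array, and the difference of -0.39 ± 0.28 (SE) was -0.48 ± 0.25 without it (limma, unadjusted p = 0.0964, adjusted p = 0.788).

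**Figure D2:**
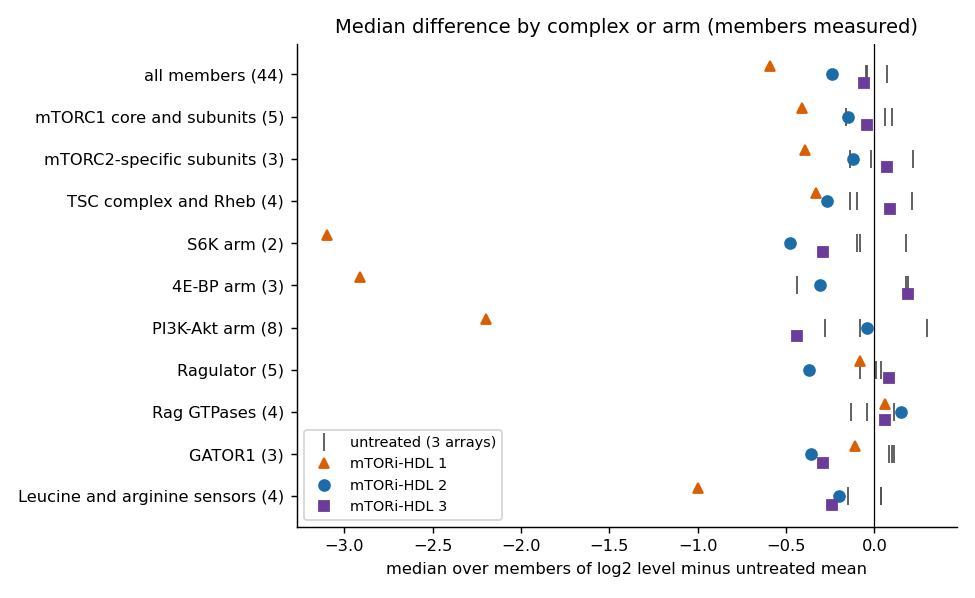
The x axis is the median over the members of each complex or arm of the log2 level minus the untreated mean, and the number of members measured follows each name. Symbols are the treated arrays and grey bars the untreated ones. On mTORi-HDL 1 the S6K, 4E-BP and PI3K-Akt medians were -3.10, -2.91 and -2.20, and on mTORi-HDL 2 and 3 they lay between -0.48 and 0.19.

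Ragulator is the pentamer that holds the Rag GTPases on the lysosome, and its 5 genes did not move together. Lamtor1, the membrane anchor, read 4.59, 6.04 and 6.78 in treated and 6.37, 4.68 and 5.59 in untreated samples, so both groups spread over more than 1 log2 unit. Its difference was 0.26 ± 0.64 (SE), and 0.87 ± 0.50 without mTORi-HDL 1. Lamtor2 and Lamtor3 had narrow ranges over all 6 arrays, of 8.07 to 8.47 and of 7.94 to 8.79. Lamtor2 had differences of -0.24 with mTORi-HDL 1 and -0.32 without it, and Lamtor3 of -0.12 and -0.15. Lamtor3's second probe set, which was dimmer, ranged from 3.89 to 6.46 and had a difference of -0.26, against -0.12 for the first. Lamtor4 was lowest on mTORi-HDL 1 (5.86, against 6.96 to 8.08 elsewhere), with differences of -0.53 with that array and 0.02 without it. Lamtor5 was highest there (7.32, against 5.40 to 6.16), with differences of 0.12 and -0.42. Ragulator's median was -0.12, or -0.15 without mTORi-HDL 1, and its sign depended on the scaling: it was 0.11 after quantile normalization and 0.31 after cyclic loess.

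Rag GTPases work as pairs of RagA or RagB with RagC or RagD. Rraga, the gene of RagA, was the member whose treated arrays all lay above the untreated ones. It read 8.17, 7.73 and 7.22 on mTORi-HDL 1, 2 and 3 and 7.17, 7.09 and 6.95 on untreated 1, 2 and 3. The gap between the closest arrays was 0.05, and the difference of 0.64 ± 0.31 (SE, limma, unadjusted p = 0.0794, adjusted p = 0.890) was 0.40 ± 0.24 without mTORi-HDL 1. It was positive under all 17 alternative settings, from 0.40 to 1.13, though several of these could not change it and all reuse the same arrays. Rragc read 3.53 on mTORi-HDL 1 and 5.63 to 6.02 on the other 5 arrays, with differences of -0.82 with that array and -0.09 without it. Rragb, which was under the 25th percentile of brightness, ranged from 2.52 to 3.77, and Rragd from 3.34 to 4.33, with overlapping groups for both. Their differences were -0.28 and 0.39, and without mTORi-HDL 1 they were -0.11 and 0.21.

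GATOR1, made of DEPDC5, NPRL2 and NPRL3, switches RagA and RagB off when amino acids are scarce. Nprl2 read 5.52, 5.26 and 4.06 in treated and 5.24, 6.42 and 5.98 in untreated samples. The groups overlapped through untreated 1, and the difference was -0.93 ± 0.48 (SE, limma, unadjusted p = 0.0891, adjusted p = 0.890). Without mTORi-HDL 1 it was -1.22 ± 0.47 (unadjusted p = 0.0362, adjusted p = 0.677), most of it from mTORi-HDL 3. Depdc5 and Nprl3 had differences of -0.23 ± 0.25 and -0.15 ± 0.31 (SE), and both had -0.30 without mTORi-HDL 1. All 3 genes of GATOR1 were lower on average with mTORi-HDL 1 and without it, with medians of -0.23 and -0.30, and none of the 3 was lowest on mTORi-HDL 1.

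Sestrins restrain complex 1 through the GATOR complexes, and Sestrin2 is a leucine sensor. Sesn3 read 5.11, 6.88 and 6.56 on mTORi-HDL 1, 2 and 3 and 7.48, 7.64 and 7.87 on untreated 1, 2 and 3. The highest treated array was 0.60 below the lowest untreated one. The difference was -1.48 ± 0.47 (SE, limma, unadjusted p = 0.0151, adjusted p = 0.890), and -0.95 ± 0.24 without mTORi-HDL 1 (unadjusted p = 0.00583, adjusted p = 0.413). Sesn1 read 3.99, 3.85 and 5.01 in treated and 4.98, 5.46 and 5.78 in untreated samples, so mTORi-HDL 3 overlapped with untreated 1 by 0.03. Its difference was -1.12 ± 0.40 (SE, limma, unadjusted p = 0.0237, adjusted p = 0.890), and -0.97 ± 0.41 without mTORi-HDL 1 (unadjusted p = 0.0489, adjusted p = 0.711).

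Sesn2 did not share this pattern. It read 4.77, 4.49 and 4.02 in treated and 3.98, 4.41 and 3.92 in untreated samples, a difference of 0.32 (95% interval -0.39 to 1.04), and of 0.15 (-0.49 to 0.79) without mTORi-HDL 1. Whether the 3 sestrins differed from each other in their response was not tested. Castor1, the gene of an arginine sensor, read 3.82, 4.87 and 4.80 in treated and 4.50, 4.45 and 4.29 in untreated samples. Its difference of 0.08 ± 0.35 (SE) was 0.42 ± 0.21 without mTORi-HDL 1, when the groups no longer overlapped. The promoter of Sesn3 is given as that of the member with the smallest unadjusted p without mTORi-HDL 1. It held none of the 3 motifs, so no base is in capitals (RefSeq, GRCm38.p6, 250 bases before the start):
Sesn3, chr9:14276051-14276300, + strand: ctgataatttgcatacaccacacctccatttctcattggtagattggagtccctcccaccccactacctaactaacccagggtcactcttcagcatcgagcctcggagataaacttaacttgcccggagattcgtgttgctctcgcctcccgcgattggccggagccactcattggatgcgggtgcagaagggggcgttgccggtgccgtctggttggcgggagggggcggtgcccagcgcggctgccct

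**Figure D3:**
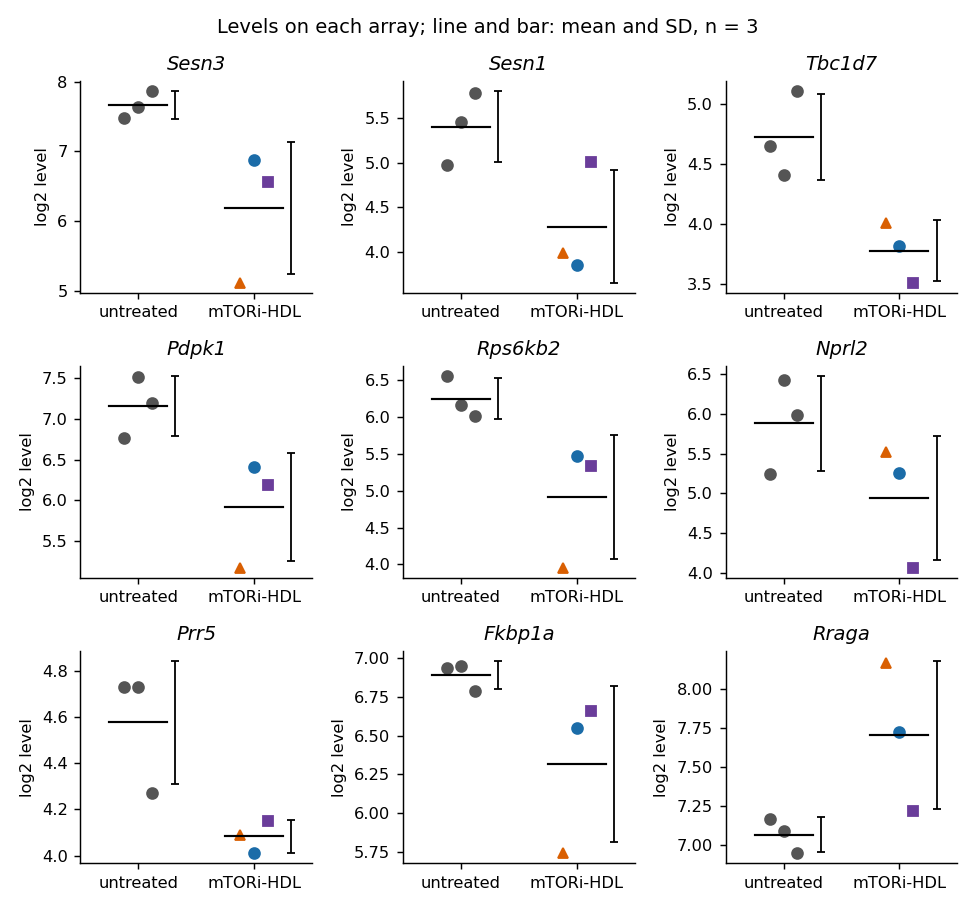
Log2 levels of 9 members on each array, untreated in grey and treated in the colours and symbols of the other plots, with the mean and SD of each group (n = 3). Each panel has its own y axis. Groups do not overlap for Sesn3, Tbc1d7, Pdpk1, Rps6kb2, Prr5 and Fkbp1a (lower in treated samples) and Rraga (higher), while Sesn1 and Nprl2 overlap.

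Ddit4 encodes REDD1, a stress protein that activates the TSC complex. It read 5.41, 3.89 and 6.25 in treated and 5.94, 5.27 and 8.39 in untreated samples, and no other member spread as widely among untreated arrays (SD 1.64, n = 3). Its difference of -1.35 had a 95% interval of -3.43 to 0.74, and without mTORi-HDL 1 it was -1.46 (-3.91 to 1.0). Ulk1, the autophagy kinase that complex 1 inhibits, ranged from 4.61 to 5.11 over all 6 arrays, with a difference of 0.17 ± 0.26 (SE), and of 0.20 ± 0.23 without mTORi-HDL 1.

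Fkbp1a encodes FKBP12, the small protein through which rapamycin reaches mTOR; the labels do not name the inhibitor in the particle. It read 5.74, 6.55 and 6.66 on mTORi-HDL 1, 2 and 3 and 6.94, 6.95 and 6.79 on untreated 1, 2 and 3. The treated arrays were all lower, mTORi-HDL 2 and 3 by 0.35 and 0.23 from the untreated mean. The difference was -0.58 ± 0.32 (SE, limma, unadjusted p = 0.111, adjusted p = 0.890) and, once mTORi-HDL 1 was left out, -0.29 ± 0.21. After cyclic loess it was -0.12.

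Leaving out mTORi-HDL 1 changed the sign of the difference for 11 of 44 members and lowered the median SE from 0.37 to 0.28. Differences beyond 0.5 either way were found for 20 members with that array and for 11 without it. Relative to the untreated mean, 17 members (38.6%) were lower by more than 1 log2 unit on mTORi-HDL 1, where 16.8% of all genes were. On mTORi-HDL 2 and 3 this held for 3 and 4 members, and for 3.11% and 2.58% of all genes. These shares were not matched for brightness. Members that were bright on the other 5 arrays tended to be those that read low on mTORi-HDL 1. Across the 44 members the mean level on those 5 arrays correlated with the difference of mTORi-HDL 1 from it at r = -0.56, and over all genes at -0.65, a description in which genes share the same arrays. The mean of the 5 arrays enters both sides of this correlation, which by itself pushes r downward. Exceptions were Lamtor2, Lamtor3 and Rraga, which were bright and not low on mTORi-HDL 1.

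**Figure D4:**
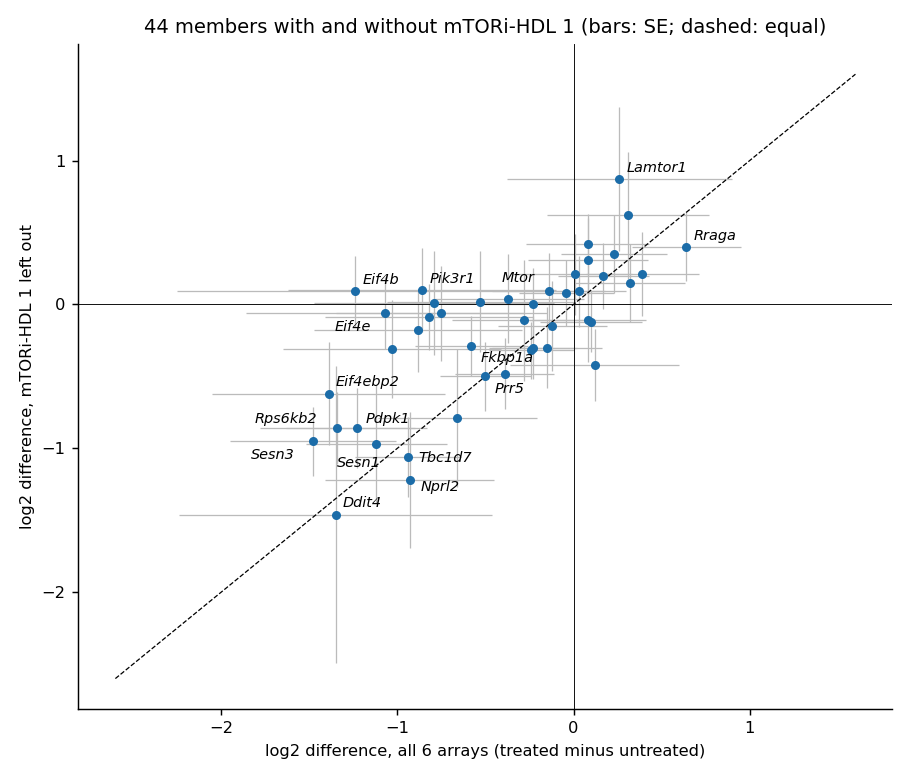
Each point is 1 of the 44 members, with its log2 difference over all 6 arrays on the x axis and without mTORi-HDL 1 on the y axis, bars of 1 SE, and a dashed line where both are equal. Sesn3, Pdpk1, Rps6kb2, Sesn1, Tbc1d7 and Nprl2 stay at -0.86 or below on the y axis, while Eif4b, Eif4e and Pik3r1 move to between -0.06 and 0.10.

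**Figure D5:**
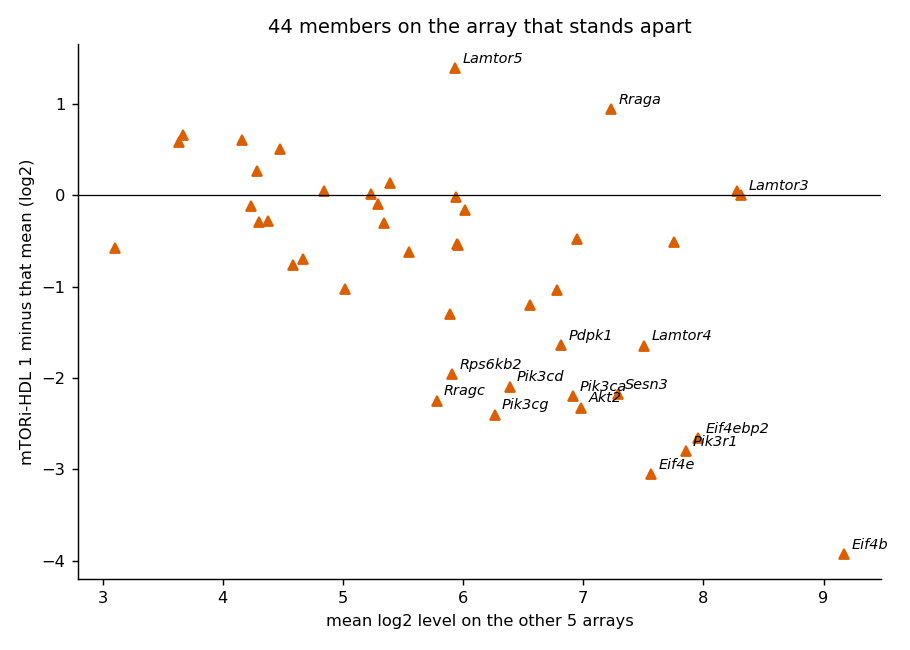
The mean log2 level on the other 5 arrays (x axis) against the level on mTORi-HDL 1 minus that mean (y axis), for 44 members. Eif4b, Eif4e, Pik3r1 and Eif4ebp2 lie lowest, Lamtor5 and Rraga lie above 0, and Lamtor3 lies near 0 although bright.

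Further genes of the pathway were taken as 98 genes in 12 lists, of which 91 were measured. Of these 4 were lower (4.4%, against 3.07% of all genes) and 3 higher (3.3%, against 1.57%) at an unadjusted p under 0.05, and 0 passed limma's adjusted p of 0.05. Their median difference was -0.04, with 52 lower and 39 higher on average. Without mTORi-HDL 1 the counts were 2 lower (2.2%, against 3.51% of all genes) and 8 higher (8.79%, against 3.47%), and the median was 0.08. The count of lower genes ranged from 0 without untreated 3 to 7 without mTORi-HDL 3, and it was 1 without mTORi-HDL 2 and 2 without untreated 2. Of all 22180 genes, 615, 1406, 1495 and 655 had such a p in these fits, in that order and in either direction.

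Prkaa2, a catalytic subunit of the energy sensor AMPK, read 4.13, 3.51 and 3.60 in treated and 2.83, 2.68 and 2.55 in untreated samples, low levels at which all treated arrays were higher (difference 1.06 ± 0.28, SE, and 0.87 without mTORi-HDL 1). Cab39, a partner of the AMPK-activating kinase LKB1, had a difference of -0.83 ± 0.32, and of -0.70 without that array. Mitf, a lysosomal and myeloid transcription factor that complex 1 controls, read 4.18, 4.40 and 4.91 in treated and 3.27, 3.68 and 3.51 in untreated samples. Its difference was 1.01 ± 0.30 (SE), and 1.17 ± 0.26 without mTORi-HDL 1. Ruvbl2, part of the machinery that assembles mTOR complexes, had a difference of -0.98 ± 0.33, and of -0.95 without mTORi-HDL 1. Maf1, a repressor of RNA polymerase III, had -0.86 ± 0.35, and -0.71 without it.

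Among the further FK506-binding proteins Fkbp5 read 3.81, 4.36 and 4.37 in treated and 4.68, 5.79 and 5.28 in untreated samples, and Fkbp1b, the closest relative of Fkbp1a, read 3.50, 3.65 and 3.29 against 2.89, 2.77 and 2.86. These are differences of -1.08 ± 0.36 and 0.64 ± 0.25 (SE), or -0.89 and 0.63 without mTORi-HDL 1, with groups that did not overlap. Fkbp1b was dim, at percentile 20.8 of brightness over all genes. Prkaa2, Mitf, Ruvbl2, Fkbp5 and Fkbp1b had an unadjusted p under 0.05 with mTORi-HDL 1 and without it, and Cab39 and Maf1 with it only.

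Slc3a2, Sgk1, Sgk3, Pik3cb and Fnip2 had such a p when mTORi-HDL 1 was left out and not when it was kept. They were 1 of 4 measured amino acid transporters, 3 of 17 further PI3K and Akt genes and 1 of 8 folliculin and lysosomal genes. Slc3a2, the heavy chain of the leucine transporter, read 8.10 and 7.76 on mTORi-HDL 2 and 3 and 7.13, 6.95 and 6.52 in untreated samples, against 5.69 on mTORi-HDL 1. Its difference was 1.06 ± 0.27 without that array and 0.32 ± 0.61 with it (SE), while its partner Slc7a5 had 0.04 without it and -0.59 with it. Sgk3 and Sgk1, kinases related to Akt of which SGK1 is a target of complex 2, had differences of 1.35 ± 0.26 and 1.11 ± 0.30 without mTORi-HDL 1. Pik3cb, the catalytic subunit of PI3K beta, had one of 1.28 ± 0.40, and Fnip2, a partner of folliculin, one of 1.01 ± 0.35. With mTORi-HDL 1 these 4 differences were 0.56 ± 0.64, 0.54 ± 0.51, 0.24 ± 0.85 and 0.78 ± 0.38.

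In the lists without a gene at an unadjusted p under 0.05 in either fit, the genes with the smallest p over all arrays were Sec13 of GATOR2 (-0.64 ± 0.60), Kptn of KICSTOR (0.43 ± 0.32), Atg14 of autophagy initiation (0.50 ± 0.30) and Trib3 of the stress regulators (0.43 ± 0.50). Phlpp2, an Akt phosphatase, had 0.67 ± 0.40, and the glutamine transporter Slc1a5 had -1.06 ± 0.68 (SE). Without mTORi-HDL 1 the values were 0.08 for Sec13, 0.18 for Kptn, 0.50 for Atg14, -0.14 for Trib3, 0.56 for Phlpp2 and -0.26 for Slc1a5.

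The lists of cell type markers and of cell division genes are described by their counts and medians. The 3 genes with the smallest unadjusted p over all arrays are named as the most separated of each list, not as typical members. Of the T cell list 14 of 14 were lower in both fits, with medians of -1.51 over all arrays and -1.03 without mTORi-HDL 1 (Ctla4 -1.48 and -1.42, Cd3g -1.53 and -1.22, Cd6 -1.49 and -1.16). Of the cell division list 23 of 23 were lower in both, with medians of -1.74 and -1.27 (Kif11 -3.07 and -2.76, Bub1b -2.20 and -2.32, Cenpe -2.11 and -2.32). Macrophage markers were higher for 12 of 14 over all arrays, the exceptions being Csf1r (-0.28) and Itgam (-0.39), and for 14 of 14 without mTORi-HDL 1. Their medians were 0.62 and 1.11 (Fcgr1 1.84 and 1.99, C1qc 0.77 and 0.71, C1qb 1.0 and 1.2). Fibroblast and mural cell markers were higher for 8 of 9 in both fits, with medians of 1.16 and 1.21 (Dcn 2.22 and 2.56, Rgs5 1.16 and 1.21, Col1a2 2.19 and 2.26), while Col3a1 had 0.09 and 0.08 and Pdgfrb -0.02 and -0.22.

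The remaining lists were less uniform. NK and cytotoxic markers had a median of -0.39 in both fits, with 9 of 10 lower over all arrays and 8 without mTORi-HDL 1 (Klrg1 -2.10 and -1.84, Gzmb -1.06 and -0.66, Prf1 -1.69 and -0.73), and Ncr1 went from -0.06 to 0.73. B cell markers were lower for 5 of 6, with medians of -0.81 and -0.46 (Cd22 -0.86 and -0.92, Ms4a1 -0.83 and -0.62, Blk 0.73 and 0.48). Dendritic cell markers were higher for 5 of 7, with medians of 0.18 and 0.10 (Batf3 1.65 and 1.44, Itgae -1.11 and -0.72, Flt3 1.0 and 1.45). Neutrophil markers were higher for 7 of 10 over all arrays and split 5 and 5 without mTORi-HDL 1, with medians of 0.34 and -0.02 (Elane 0.68 and 0.26, Mpo 0.42 and 0.25, Cxcr2 0.48 and 0.17), and S100a8 had -0.38 and -0.45. Endothelial markers were higher for 7 of 8 over all arrays and 4 of 8 without mTORi-HDL 1, with medians of 0.20 and 0.02 (Eng 1.32 and 1.72, Kdr 0.56 and 0.64, Pecam1 -0.81 and -0.04). Cardiomyocyte markers were higher for 8 of 9 and then 6 of 9, with medians of 0.35 and 0.04 (Tnnc1 1.24 and 1.66, Tnnt2 1.17 and 1.56, Nppa 0.91 and 0.92), and Actc1 had -0.05 and -0.28. None of these genes passed limma's adjusted p of 0.05.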

How the data were processed

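Values were the deposited log2 expression levels of 41345 probe sets on 6 arrays (3 a group), which the authors made with RMA in Affymetrix Expression Console. These tools come from the submitters' processing notes, without versions. RMA corrects background, quantile-normalizes and summarises probes. The array's genome build is not given in the sources used here. Per the labels, each array was hybridised after amplification of 15 ng of RNA. Precision is limited by having 6 arrays.

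A single gene symbol was listed for 23521 probe sets, several for 1814 and none for 16010. Those with a single symbol were used, the brightest per gene, which gave 22180 genes. The contrast was fitted in limma 3.58.1 (R 4.3.3) by lmFit and eBayes with no term but the group, two-sided, with Benjamini-Hochberg adjustment over all genes. A difference is the treated mean minus the untreated mean, in log2 units. The test was tried on simulated data. Promoters came from RefSeq, build GRCm38.p6, matched by symbol.

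The members and lists were chosen with earlier results of these data known, so unadjusted p-values among members are descriptive. Values on every array are given for members at an unadjusted p under 0.05 with or without mTORi-HDL 1, for those whose groups did not overlap with a difference of at least 0.5, for a panel of central genes and for some others. Of each further pathway list the gene with the smallest p and any at an unadjusted p under 0.05 are named, and of each marker list the 3 with the smallest p, with a few others as counterexamples chosen after their values were seen. Alternatives were scaling (median centring, quantile, cyclic loess), array weights, eBayes with trend and robust, a replicate block, filters on dim genes, other choices of probe set, and leaving out each array.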

Additional observations from a re-analysis of the deposited data

How the results depend on the processing

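Over 17 alternatives no member passed limma's adjusted p of 0.05. Array weights called 1 gene, H2bc12, which is not a member, and gave 7 further pathway genes higher at an unadjusted p under 0.05, a median difference of the members of -0.11 and of the complex 2 subunits of 0.22. Median centring gave medians of -0.05 for the Rag GTPases and -0.34 for GATOR1. Quantile normalization gave 0.36 for complex 2, 0.11 for Ragulator and -0.08 for the Rags, and cyclic loess gave 0.49, 0.31 and -0.13 and a median of the members of -0.13; both left 1 further pathway gene lower. With trend and robust eBayes 2 of these were lower. The filter at the 25th percentile of brightness left 1 further pathway gene higher and a Rag median of 0.39, and that at the median of brightness 0 and -0.09, since fewer genes enter. Without mTORi-HDL 1 and with quantile normalization of the rest, 2 members stood apart upward, 2 further pathway genes were lower and 8 higher, and the medians of the members and of complex 2 were -0.09 and 0.22. Of all 22180 genes, in either direction, 1561 had an unadjusted p under 0.05 in that fit and 1768 with array weights. It was 1006 after quantile normalization, 1266 after cyclic loess and 918 with trend and robust eBayes. With the 2 filters it was 856 of 16635 and 635 of 11090 genes.

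When each array was left out in turn, an unadjusted p under 0.05 was found for 2 to 6 lower and 0 to 1 higher members. Of all 22180 genes, 615 to 1547 had such a p in either direction. Members standing apart numbered 7 to 12 downward and 1 to 3 upward, which was counted over all genes only without mTORi-HDL 1. Among further pathway genes 0 to 7 were lower and 2 to 8 higher at such a p. Medians ranged from -0.40 to -0.10 for the members, from -0.34 to 0.00 for complex 1, from -0.25 to 0.21 for complex 2, from -0.28 to 0.09 for Ragulator, from -0.07 to 0.15 for the Rags and from -0.38 to -0.17 for GATOR1. They ranged from -1.79 to -0.39 for the S6K arm, from -1.70 to -0.06 for the 4E-BP arm and from -1.35 to -0.12 for the PI3K-Akt arm, in each case nearest 0 without mTORi-HDL 1. The ranges were -0.11 to 0.12 for TSC and Rheb and -0.78 to -0.40 for the sensors. Apart from the effect of fewer arrays or genes, the cause was not tested.

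Deviations from the group mean correlated at r = 0.136, 0.135 and -0.024 for samples with the same replicate number. For different numbers r was -0.163 to 0.126. These values do not settle whether the numbers mark pairs. The labels state no pairing, and none was used in the main fit. With the replicate block, 7 members had a negative difference at an unadjusted p under 0.05, with Eif4ebp2 and Ddit4 added to the 5, and 0 passed adjustment. Of all 22180 genes, 1183 had such a p with the block, in either direction. Sesn3, Pdpk1 and Rps6kb2 had an unadjusted p under 0.05 in 16 of the 17 alternatives, Tbc1d7 in 15 and Sesn1 in 13, and all 5 were lower in each. These 5 genes were named by that p in the main fit. The alternatives reuse the same arrays, and several leave the differences unchanged, so the tally is a description and no further evidence. Array brightness has no detection call here, and 3 members had a mean under the median of all genes.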
